A study of Mus musculus with 4 samples.

Results

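Small nucleolar RNA (snoRNA) genes were examined in resting CD4+ T cells that lack the Ifitm family. A member is a gene whose symbol begins with Snord or Snora followed by a number, and that the platform annotation names alone for at least 1 probe set. The arrays held 51 such genes among 19937 genes named in this way, of which 31 were box C/D (Snord) and 20 were H/ACA (Snora) genes. They were read by 53 of the 34760 probe sets, and a gene with more than 1 probe set was represented by that of the highest mean.

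The 4 arrays were Affymetrix Mouse Gene 1.0 ST arrays of total RNA, 2 from wild-type (WT) and 2 from IfitmF-/- mice, which carry a deletion of the whole Ifitm family. Animals of both groups were adults of 6 to 8 weeks, the deleted line is described as on a C57BL/6 background, and no stimulus or agent was given to either group. Spleen suspensions were treated with ammonium chloride, which lyses red cells, and the CD4+ T cells were purified by removing the other cell types. Per the study, each array held cells pooled from 2 mice, and the replicates were purified separately. Values are log2 intensities after RMA (robust multi-array average), where 1 unit is a 2-fold difference, and a change is the IfitmF-/- mean minus the WT mean. A gene was called at an adjusted p under 0.05 in limma, adjusted by Benjamini-Hochberg over all probe sets.

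SnoRNAs are short nuclear RNAs that work inside the nucleolus, where ribosomes are built. Box C/D RNAs guide the addition of methyl groups to ribosomal RNA, and H/ACA RNAs guide the change of uridine to pseudouridine. A few of them take part in the cleavage of the ribosomal RNA precursor instead. In mammals most are cut out of introns of a host gene, often one for a ribosomal protein or a long non-coding RNA, so that a snoRNA and its host are made in 1 transcript but can differ in stability.

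Checks of the labels came first. Ifitm3 was at 9.26 and 8.91 on the WT arrays and at 4.61 and 4.36 on the IfitmF-/- arrays, and Cd4 lay between 11.44 and 11.79 on all 4. Xist, which is expressed from an inactive X chromosome, was at 11.32 and 11.25 on the WT arrays and at 4.86 and 4.43 on the IfitmF-/- arrays, and Y-linked genes ran the opposite way (Eif2s3y, 3.90 and 4.05 against 9.48 and 9.61). Sex and genotype therefore cannot be told apart here, and this holds for every change below. On the X chromosome lie 3 of the snoRNA genes, Snord61, Snora69 and Snora70. As in any bulk RNA, fewer cells of a type and less RNA per cell cannot be told apart either.

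Most of the snoRNA genes gave a signal. A total of 49 of the 51 lay above a background of 5.51, which is the 95th percentile of 1194 olfactory and vomeronasal receptor genes that a T cell is not known to use. The median mean level was 8.38 for the box C/D genes and 8.89 for the H/ACA genes, against 6.41 over all genes. The exceptions were Snord52, at 4.17 and 4.16 in WT and 4.15 and 4.55 in IfitmF-/- cells, and Snora2b, at 5.41 and 5.46 in WT and 5.28 and 5.45 in IfitmF-/- cells. Levels of different probe sets are not amounts of RNA, and the mean intensity served below only to choose which genes to name.

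Box C/D genes lay more often above than below WT in IfitmF-/- cells. Of the 31, 5 were called higher (16.1%) and 2 lower (6.45%), while 4.96% of all genes were called higher and 3.61% lower. Both IfitmF-/- arrays lay above both WT arrays for 19 of them and below both for 7, and the groups overlapped for 5. Among all genes, 27.9% lay above in this way and 30.8% below. The median change was 0.25 over the box C/D genes and -0.02 over all genes, and single genes ranged from -1.22 to 1.11. At an unadjusted p under 0.05 there were 13 box C/D genes on the higher and 4 on the lower side, against 2854 and 2292 of all 19937 genes.

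Of the 20 H/ACA genes 1 was called higher and 1 lower (5.0% each), close to the 4.96% and 3.61% of all genes. The IfitmF-/- arrays lay above both WT arrays for 11 (55.0%, against 27.9% of all genes) and below both for 2 (against 30.8%), and the groups overlapped for 7. Their median change was 0.34 and their range was -0.56 to 2.03. At an unadjusted p under 0.05 there were 7 genes on the higher and 1 on the lower side, against 2854 and 2292 of all 19937 genes.

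**Figure D1:**
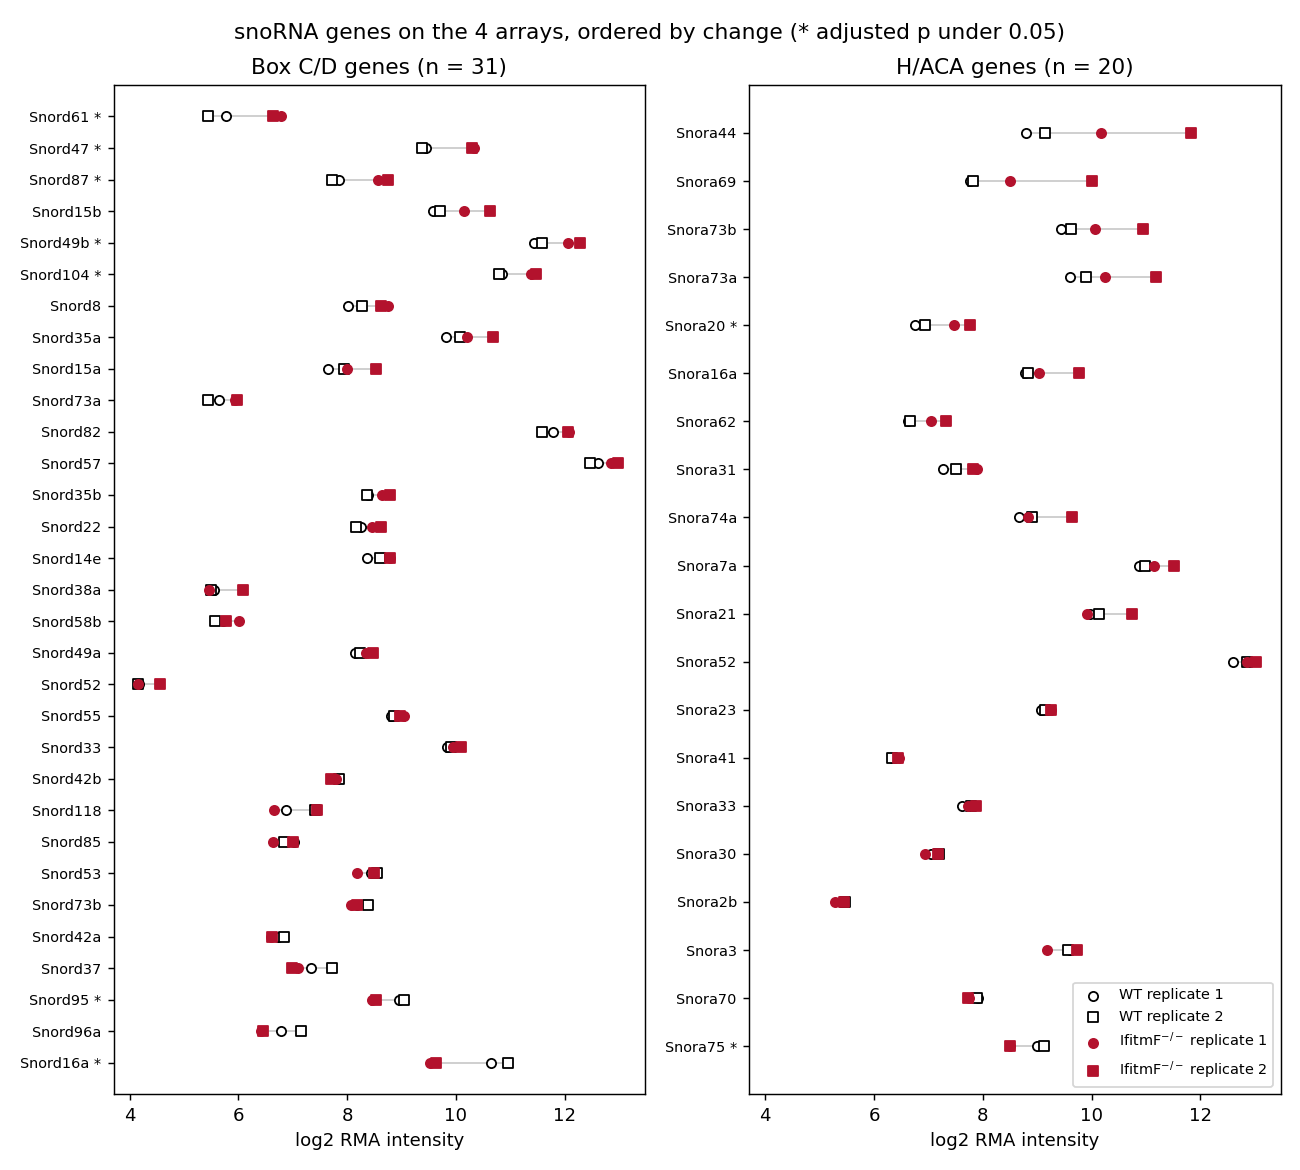
log2 RMA intensity (horizontal axis) of every box C/D gene (left, 31) and H/ACA gene (right, 20) on each of the 4 arrays. Open black symbols are WT, filled red symbols IfitmF-/-, circles replicate 1 and squares replicate 2, and genes are ordered by change with an asterisk at an adjusted p under 0.05. Snord61 and Snord16a stand at the 2 ends of the box C/D panel, and the IfitmF-/- replicate 2 square lies far to the right for Snora44 and Snora69.

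Among the box C/D genes that rose, Snord47, a guide for the large ribosomal subunit carried by the growth-arrest transcript Gas5, was at 9.44 and 9.38 in WT and at 10.33 and 10.30 in IfitmF-/- cells. Its groups lay well apart, with a change of 0.91 (95% interval 0.69 to 1.12, adjusted p = 0.016). Snord87, also a large-subunit guide and hosted by the long non-coding RNA Snhg6, was at 7.84 and 7.72 in WT and at 8.56 and 8.75 in IfitmF-/- cells. It rose by 0.87 (0.59 to 1.16, adjusted p = 0.0255). The host of each of these genes is a long non-coding RNA that gives rise to snoRNAs.

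Snord61, a small-subunit guide in an intron of the RNA-binding protein gene Rbmx, was at 5.78 and 5.43 in WT and at 6.79 and 6.63 in IfitmF-/- cells. It had the largest rise of the class, 1.11 (0.71 to 1.50, adjusted p = 0.0293), from a WT level close to the background of 5.51. Snord61 is X-linked.

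Snord104, a large-subunit guide in the long non-coding RNA Gm36220, was at 10.85 and 10.79 in WT and at 11.38 and 11.48 in IfitmF-/- cells, a change of 0.61 (0.38 to 0.84, adjusted p = 0.0314). Snord49b, in the long non-coding RNA 2410006H16Rik, was at 11.44 and 11.59 in WT and at 12.06 and 12.28 in IfitmF-/- cells. Its change was 0.66 (0.35 to 0.97, adjusted p = 0.047), and after a renewed quantile normalization its adjusted p was 0.0566.

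Both box C/D genes that fell sit in genes whose products are part of the ribosome. Snord16a, a small-subunit guide in the ribosomal protein gene Rpl4, was at 10.65 and 10.95 in WT and at 9.52 and 9.64 in IfitmF-/- cells. The groups lay more than 1 unit apart at the means, and the change was -1.22 (-1.58 to -0.86, adjusted p = 0.0213). Snord95, a large-subunit guide in Rack1, which codes for a scaffold protein of the small ribosomal subunit, was at 8.95 and 9.05 in WT and at 8.45 and 8.52 in IfitmF-/- cells. Its change was -0.52 (-0.75 to -0.28, adjusted p = 0.0428).

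For the H/ACA genes that passed the threshold, Snora20, in the chaperonin gene Tcp1, was at 6.75 and 6.93 in WT and at 7.46 and 7.76 in IfitmF-/- cells. It rose by 0.77 (0.40 to 1.15, adjusted p = 0.0485). Snora75, in the nucleolin gene Ncl, was at 8.99 and 9.13 in WT and at 8.51 and 8.49 in IfitmF-/- cells, a change of -0.56 (-0.80 to -0.32, adjusted p = 0.0397). Both genes showed less spread within a genotype than between the genotypes.

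The start of a host transcript is of note for snoRNAs, because many host genes belong to the terminal oligopyrimidine class, whose transcripts begin with a C followed by a run of C and T. RefSeq (assembly GRCm38.p6) gave start sites for 30 of the 40 host genes. The windows below hold 15 bases before the annotated start and 15 from it, in the direction of the host, and are shown for the hosts of called genes other than Snhg6, which has no entry, and for Snhg12 and Snhg3, which carry the H/ACA genes described next. Capitals mark the unbroken run of C and T from the annotated start.
Gas5, downstream start, chr1:161035151-161035180, plus strand: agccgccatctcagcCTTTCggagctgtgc
Gas5, upstream start, chr1:161034586-161034615, plus strand: agggggcgggcccgcgagctcgacagcccg
Gm36220, chr11:106500900-106500929, plus strand: cacgtccattccggcCTCTTatcgacgggg
2410006H16Rik, chr11:62602862-62602891, plus strand: tcacgcgccgtctttCTCTgcggccatcat
Rbmx, chrX:57393022-57393051, minus strand: cttaatttccatccgggttcttcagcctcg
Rack1, chr11:48800345-48800374, plus strand: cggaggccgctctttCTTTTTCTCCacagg
Rpl4, chr9:64173372-64173401, plus strand: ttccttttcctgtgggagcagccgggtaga
Ncl, chr1:86359441-86359470, minus strand: ggctccggggacggaCgcgagctctggttg
Tcp1, chr17:12916314-12916343, plus strand: gcagccccctacttcCggcgttttcagttt
Snhg12, chr4:132308663-132308692, plus strand: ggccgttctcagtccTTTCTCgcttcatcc
Snhg3, chr4:132353672-132353701, minus strand: tagtcgaccacgcctgacttccgggcgtta

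A C at the annotated start that opens a run of at least 5 bases of C or T, searched on the strand of the gene alone, was present for 6 of the 30 host genes (20.0%). Of all genes in the same table, those on chromosome 18 included, 813 of 27025 (3.01%) had it at some start. The 6 were 3 of 7 long non-coding hosts and 3 of 23 protein-coding hosts. Gas5 and Gm36220 carried the run and the snoRNA rose, and Rack1 carried the longest run printed above and Snord95 fell. The other hosts with the run were 1110038B12Rik, Ipo7 and Rplp2. Their snoRNA genes were not called (changes of 0.19 for Snord52, 0.15 for Snora23 and 0.21 for Snora52). A match is a description of the letters, and an annotated start can lie some bases from the start used in T cells.

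The largest changes among the H/ACA genes were not called, with both IfitmF-/- arrays above both WT arrays and replicate 2 far above replicate 1. Snora44, hosted by Snhg12, was at 8.79 and 9.15 in WT, at 10.17 on IfitmF-/- replicate 1 and at 11.83 on replicate 2. The groups did not overlap, but with 1.66 units between the IfitmF-/- arrays the change of 2.03 had an interval of 0.48 to 3.58 (adjusted p = 0.118). Snora69, X-linked and in the ribosomal protein gene Rpl39, was at 7.77 and 7.82 in WT, at 8.49 on IfitmF-/- replicate 1 and 1.51 units higher on replicate 2 (change 1.45, 0.06 to 2.84, adjusted p = 0.174).

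Snora73a and Snora73b, the U17 RNAs that act in cleavage of the ribosomal RNA precursor rather than as guides, both lie in Snhg3. Snora73a was at 9.61 and 9.89 in WT and at 10.24 and 11.18 in IfitmF-/- cells, a change of 0.96 (0.04 to 1.88, adjusted p = 0.174). Snora73b was at 9.44 and 9.63 in WT and at 10.07 and 10.95 in IfitmF-/- cells, a change of 0.98 (0.14 to 1.81, adjusted p = 0.145). The 2 copies are nearly alike, so signal may be shared between their probe sets, and they showed the same order of arrays.

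IfitmF-/- replicate 2 was the highest of the 4 arrays for 29 of the 51 snoRNA genes (56.9%), compared with 26.3% of all genes. The share was 15 of 31 for box C/D genes and 14 of 20 (70.0%) for H/ACA genes. It exceeded IfitmF-/- replicate 1 by over 0.5 for 8 H/ACA and 3 box C/D genes, compared with 2.55% of all genes. The WT pair differed this much in the same direction for 1 snoRNA gene, Snord118. Without regard to size, replicate 2 was higher than replicate 1 for 38 of the 51 snoRNA genes in IfitmF-/- cells and for 35 in WT, among them 16 and 17 of the 20 H/ACA genes. Over all genes it was higher for 9496 and 10371 of 19937.

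With IfitmF-/- replicate 1 alone set against WT, a comparison chosen after the values were seen, 19 box C/D and 11 H/ACA genes lay above both WT arrays, against 38.3% of all genes. Below both lay 12 and 6, against 40.8% of all genes. The counts above WT equal those with both arrays, and the counts below are larger (7 and 2 with both). Without replicate 2 the median change was 0.22 for box C/D genes and 0.14 for H/ACA genes, and without replicate 1 it was 0.38 and 0.51.

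Markers of other cell types differed between the arrays. The mean level of the 4 platelet genes Ppbp, Pf4, Itga2b and Gp9 was 8.99 and 8.54 in WT, 9.15 on IfitmF-/- replicate 1 and 10.47 on replicate 2, and each of the 4 was highest on that array. The mean of 6 B cell genes was 10.94 and 9.30 in WT and 9.10 and 9.79 in IfitmF-/- cells, so it was highest on WT replicate 1. The mean of 4 myeloid genes was 9.05, 8.42, 8.57 and 9.33 in the same order. Other lists separated the genotypes on both arrays, where 27.9% of all genes lay above and 30.8% below WT without overlap. The mean of 4 plasma cell genes was 9.64 and 9.25 in WT and 8.46 and 8.45 in IfitmF-/- cells, with all 4 lower without overlap and Xbp1 called (-1.58). The mean of 3 natural killer cell genes was 7.47 and 6.99 in WT and 8.18 and 7.90 in IfitmF-/- cells, with all 3 higher without overlap and none called. The mean of 3 neutrophil genes was 5.22 and 5.23 in WT and 5.90 and 6.02 in IfitmF-/- cells, with all 3 higher without overlap and Retnlg called (1.83). S100a8 and S100a9 had mean levels of 5.05 and 5.57, below or close to the background of 5.51, so this separation rests mainly on Retnlg. The mean of 2 red cell genes was 10.04 and 10.58 in WT and 11.18 and 11.12 in IfitmF-/- cells. Of these, Slc4a1 was higher without overlap (9.24 and 11.19 against 12.01 and 11.78), Alas2 overlapped and neither was called. The mean of 7 CD4+ T cell genes lay between 11.59 and 11.80 on all arrays, but Cd3d (0.59), Cd3g (0.59) and Il7r (0.46) were called higher and Ccr7 (-0.87) lower. What part these cells have in the snoRNA values was not tested.

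The gap between the IfitmF-/- arrays was set against RNA length. By RefSeq the 51 RNAs measured 45 to 205 nucleotides, and 19 H/ACA and 4 box C/D genes exceeded 100 nucleotides. Of the 23 genes over 100 nucleotides, 10 were higher by over 0.5 on IfitmF-/- replicate 2, and of the 28 others 1 was. Across the 51 genes, which share the same 4 arrays and are no independent replicates, the gap correlated with length at Pearson's r = 0.50 and Spearman's rho = 0.48. For the WT pair the same values were 0.38 and 0.38, and for the change between genotypes 0.24 and 0.21. For the IfitmF-/- gap, r was 0.27 and rho 0.40 within the 20 H/ACA genes, and r was 0.52 and rho 0.35 within the 31 box C/D genes. Among other small RNAs the longest had small gaps, namely 0.004 for Terc (397 nucleotides), 0.02 for Rn7sk (332) and 0.09 for Rpph1 (325). The largest gap was 0.82 for Rnu3a (212), and Rny3 (101) had one of 0.62, Rmrp (275) 0.36 and Scarna13 (275) 0.19. The length limit was chosen after the values were seen.

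**Figure D2:**
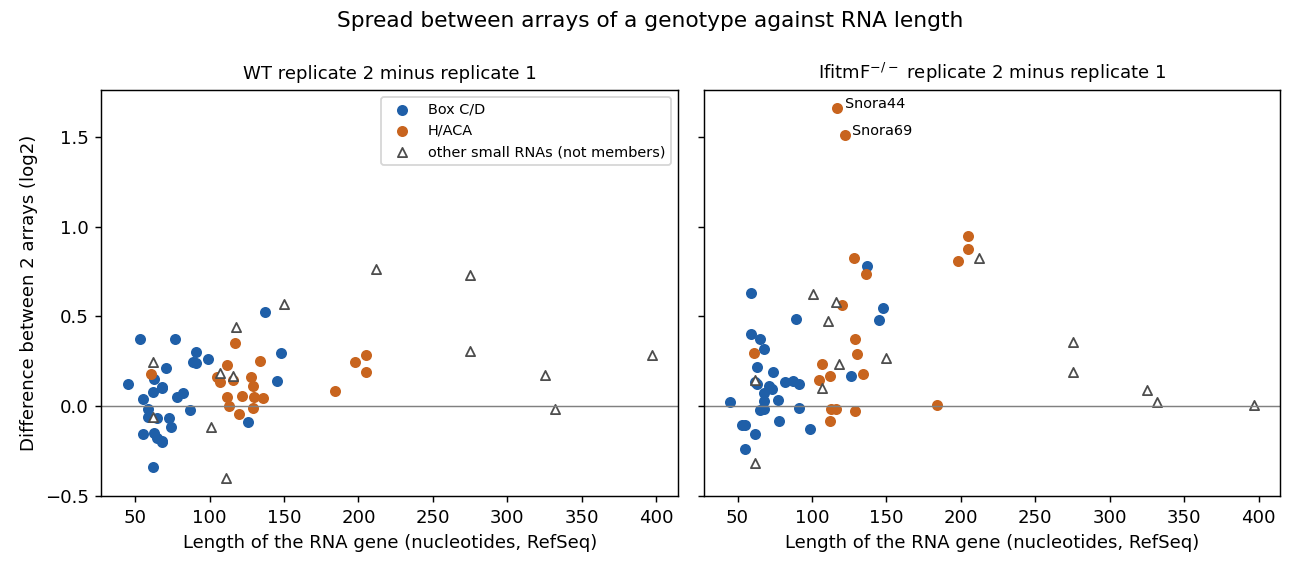
Difference in log2 intensity between replicate 2 and replicate 1 (vertical axis) against RNA length in nucleotides by RefSeq, for the WT pair (left) and the IfitmF-/- pair (right). Blue points are box C/D genes, orange points H/ACA genes and open triangles 14 other small RNAs. In the right panel Snora44 (1.66) and Snora69 (1.51) stand highest, and 10 of the 23 snoRNA genes over 100 nucleotides lie above 0.5.

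Among the genes named for their mean intensity, Snord57, a small-subunit guide in an intron of Nop56, was at 12.62 and 12.47 in WT and 12.86 and 12.98 in IfitmF-/- cells (change 0.38, 0.11 to 0.65, adjusted p = 0.105). Snord82, a small-subunit guide in Ncl, was at 11.78 and 11.58 in WT and 12.08 and 12.06 in IfitmF-/- cells (0.39, 0.12 to 0.66, adjusted p = 0.0977). The groups did not overlap for either, and neither passed the threshold.

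Snora52 was at 12.60 and 12.85 in WT and at 12.85 and 13.03 in IfitmF-/- cells, so the groups touched (0.21, -0.13 to 0.56, adjusted p = 0.374). Snora7a was at 10.87 and 10.98 in WT and at 11.14 and 11.51 in IfitmF-/- cells (0.40, adjusted p = 0.193). Snora21 was at 9.97 and 10.13 in WT and 9.91 and 10.74 in IfitmF-/- cells (0.28, adjusted p = 0.608), and its second probe set had a change of -0.33 (adjusted p = 0.286). Snora3, the other gene with a second probe set, had changes of -0.13 and -0.02.

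The box C/D RNAs known for processing of the ribosomal RNA precursor were represented by 3 members. Snord14e, a U14 RNA in the chaperone gene Hspa8, was at 8.36 and 8.60 in WT and 8.80 and 8.78 in IfitmF-/- cells (0.31, 0.01 to 0.61, adjusted p = 0.174). Snord22, or U22, in Snhg1, was at 8.26 and 8.17 in WT and 8.46 and 8.63 in IfitmF-/- cells (0.33, 0.06 to 0.60, adjusted p = 0.131). Snord118, or U8, which acts in maturation of the large subunit and is transcribed from its own promoter, was at 6.88 and 7.41 in WT and 6.66 and 7.44 in IfitmF-/- cells (-0.09, -0.96 to 0.79, adjusted p = 0.893). Replicate 2 was higher than replicate 1 in both genotypes for Snord118, and its groups overlapped.

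A further 2 members lie in Rpl13a, the ribosomal protein gene whose box C/D RNAs are known from work on lipotoxic stress. Snord33 was at 9.84 and 9.91 in WT and 9.95 and 10.09 in IfitmF-/- cells (0.15, adjusted p = 0.375). Snord35a was at 9.83 and 10.07 in WT and 10.20 and 10.69 in IfitmF-/- cells (0.50, -0.04 to 1.03, adjusted p = 0.211). No gene of the imprinted Snord115 and Snord116 clusters was named alone.

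Of the genes not yet described, those with the strongest unadjusted evidence were Snora62 in Rpsa (0.55, adjusted p = 0.0763), Snord8 in Gm26590 (0.54, adjusted p = 0.0777), Snora31 in Tpt1 (0.47, adjusted p = 0.0837) and Snord15b in Rps3 (0.74, adjusted p = 0.0902). All 4 had both IfitmF-/- arrays above both WT arrays. On the lower side were Snord96a in Rack1 (-0.54, adjusted p = 0.111) and Snord37 in Eef2, the elongation factor gene (-0.48, adjusted p = 0.141). Snora73a, Snora44 and Snora69 thus had larger changes than several called genes, and wider intervals.

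The host genes divide the snoRNA genes into 13 in long non-coding RNAs, 37 in protein-coding genes and Snord118 with none, a split made after the values were seen. All 13 in long non-coding RNAs had a positive change, 11 had both IfitmF-/- arrays above both WT arrays and none had both below (84.6% and 0%, against 27.9% and 30.8% of all genes), and 4 were called higher (30.8%, against 4.96%). Their median change was 0.61. Of the 37 in protein-coding genes, 23 had a positive change, 19 lay above and 9 below WT without overlap (51.4% and 24.3%), and the median change was 0.18. Of these 37, 2 were called higher (5.41%) and 3 lower (8.11%), against 4.96% and 3.61% of all genes. The 13 genes lie in 10 hosts and are not independent of each other. IfitmF-/- replicate 2 was the highest array for 11 of the 13 and for 17 of the 37.

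**Figure D3:**
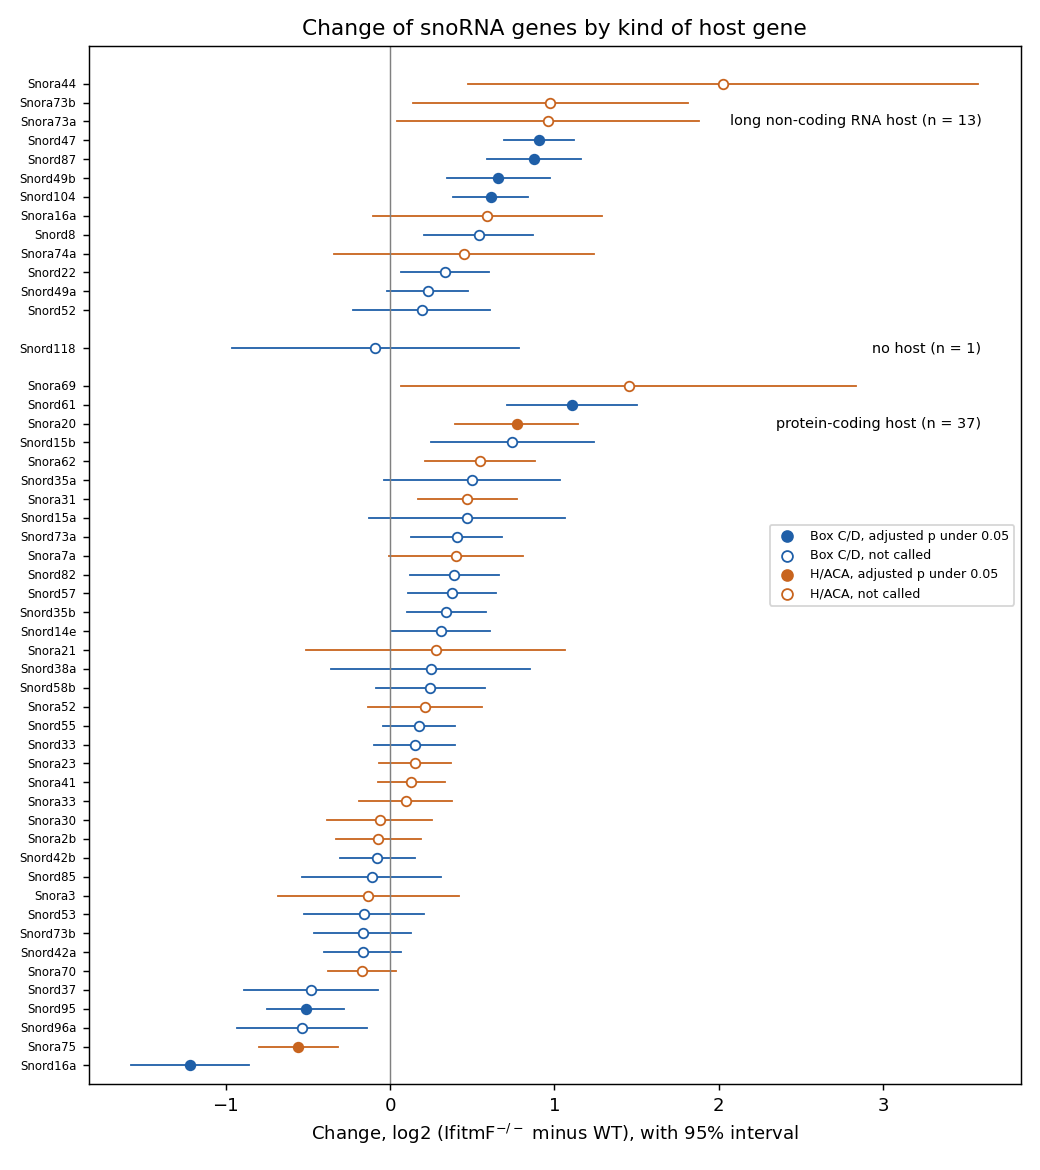
Change in log2 intensity (IfitmF-/- minus WT) with its 95% interval for the 51 snoRNA genes, grouped by kind of host gene. Blue is box C/D, orange is H/ACA, and filled points have an adjusted p under 0.05. All 13 points in long non-coding hosts lie to the right of 0, and those in protein-coding hosts lie on both sides, from Snord16a at -1.22 to Snora69 at 1.45.

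A probe set named for the host was present for 27 snoRNA genes in 23 hosts. Their changes had the same sign in 15 pairs and opposite signs in 12. Across the 27 pairs, which share the arrays and in 4 cases the host, Pearson's r was 0.11 and Spearman's rho was 0.12. The median change of the 23 hosts was 0.00, and 1 host was called higher and 1 lower (4.35% each, against 4.96% and 3.61% of all genes). A probe set inside an intron cannot separate the mature snoRNA from the unspliced host transcript. The probe sets of Hspa8, Rps3a1, Rps12, Tpt1, Rpl23, Rpl23a, Rpl27a and Rpsa carry numbers far from those of their snoRNA genes. The numbers lie close for Gas5, Rbmx, Rpl4, Tcp1 and Ncl. The number for Tpt1, a gene on chromosome 14, lies between those of X-linked Snora70 and Snora69. Whether the probe sets with far numbers read the host gene or a copy of it elsewhere was not checked, and both called hosts are among them. The pair counts, host calls, host median and correlations above include them, so some pairs may not set a snoRNA against its own host.

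The host had a smaller change than the snoRNA for each called gene whose host was measured. Gas5 was at 10.86 and 10.84 in WT and at 11.12 and 11.06 in IfitmF-/- cells (0.24, adjusted p = 0.155), beside 0.91 for Snord47. Rbmx was at 8.95 and 9.0 in WT and at 8.97 and 8.94 in IfitmF-/- cells (-0.02, adjusted p = 0.896), beside 1.11 for Snord61. Rpl4 was at 11.69 and 11.65 in WT and 11.52 and 11.51 in IfitmF-/- cells (-0.16, adjusted p = 0.280), beside -1.22 for Snord16a. Tcp1 had a change of -0.14 (adjusted p = 0.412), opposite in sign to the 0.77 of Snora20. The differences between host and snoRNA changes were not tested.

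In the nucleolin gene, 1 of 2 intronic RNAs was called. Ncl itself, which codes for an abundant nucleolar protein, was at 11.30 and 11.35 in WT and 11.00 and 10.97 in IfitmF-/- cells (-0.34, adjusted p = 0.0785), while Snora75 fell by 0.56 and Snord82 had a change of 0.39 (adjusted p = 0.0977). Nop56, a core protein of box C/D particles, had a change of -0.34 (adjusted p = 0.114) and its intronic Snord57 one of 0.38. The probe set named for Hspa8 was at 13.38 on both WT and 12.89 on both IfitmF-/- arrays, and fell by 0.49 (adjusted p = 0.0375), with 0.31 for Snord14e. The probe set named for Rps3a1, a ribosomal protein gene, rose from 9.68 and 9.60 to 10.78 and 10.59 (1.04, adjusted p = 0.0191). Of the RNAs in this gene, Snord73a had a change of 0.40 (adjusted p = 0.0942) and Snord73b one of -0.17 (adjusted p = 0.411). Whether the probe sets of Hspa8 and Rps3a1 read these host genes or copies elsewhere was not checked.

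A total of 10 hosts carried 2 measured snoRNA genes each, and in 8 of them the 2 changes had the same sign. The closest were Snora73a and Snora73b in Snhg3, which differed by 0.01, and Snord95 and Snord96a in Rack1, which differed by 0.02. The widest were Snora44 and Snora16a in Snhg12, at 2.03 and 0.59. The 2 hosts with opposite signs were Ncl and Rps3a1.

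**Figure D4:**
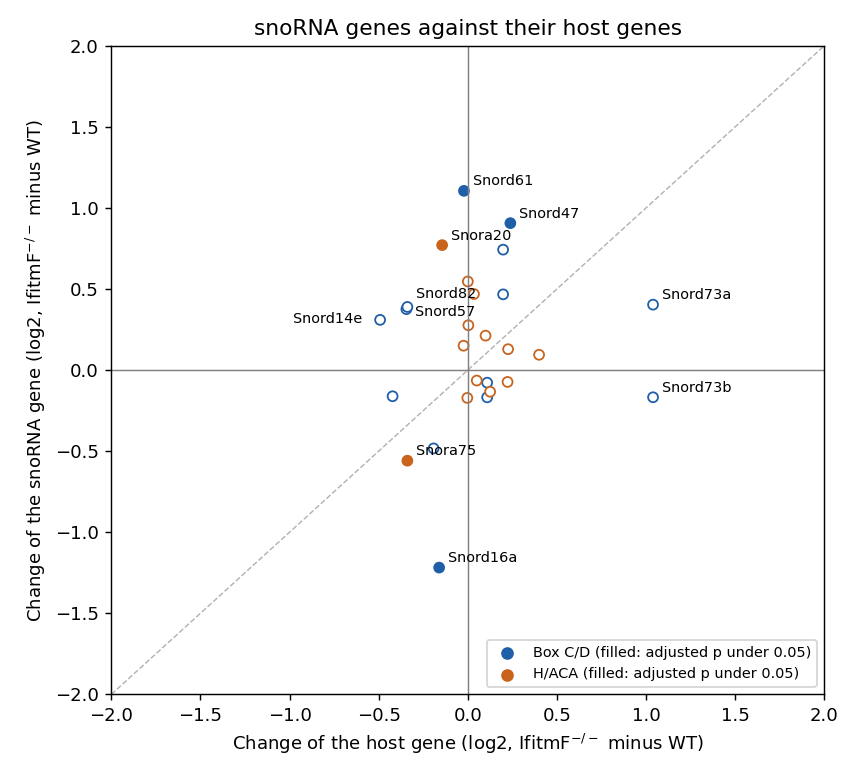
Change of the snoRNA gene (vertical) against change of the probe set named for its host gene (horizontal), in log2 units as IfitmF-/- minus WT, for 27 pairs. Some host probe sets may read a copy of the host elsewhere. Filled points are snoRNA genes with an adjusted p under 0.05 and the dashed line marks equal change. Snord61, Snora20 and Snord47 lie far above the line and Snord16a far below it, near a host change of 0.

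Another 22 probe sets named a snoRNA together with other genes and were not counted as members. Of these, 4 were called higher and 1 lower, where 4.96% and 3.61% of all genes were. A pair of probe sets for Snord14c and Snord14d together with their host Hspa8 had changes of 0.96 (adjusted p = 0.0209) and 0.58 (adjusted p = 0.0471), while the probe set of Hspa8 alone fell. Those of Snord68 with Rpl13 (0.71, adjusted p = 0.026) and of Snord34 with Rpl13a (0.56, adjusted p = 0.0383) were higher, and that of Snora28 with Eif5 was lower (-0.85, adjusted p = 0.0317). The 7 probe sets of the Snord116 cluster had none called.

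The proteins that build snoRNA particles were then examined, since free snoRNA is not stable without them. Of 23 core and assembly genes, 1 was called higher and 1 lower (4.35% each, against 4.96% and 3.61% of all genes), with a median change of -0.11. Both IfitmF-/- arrays lay below both WT arrays for 14 (60.9%, against 30.8% of all genes). All 4 core genes of box C/D particles were among these 14. The methyltransferase gene Fbl changed by -0.15 (adjusted p = 0.308), Nop56 by -0.34 (adjusted p = 0.114), Nop58 by -0.42 (adjusted p = 0.0583) and Snu13 by -0.42 (adjusted p = 0.0611), none of them past the threshold. Their median change was -0.38, beside 0.25 for the box C/D RNAs.

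The H/ACA core genes did not move together. Nop10 was at 9.58 and 9.65 in WT and 10.38 on both IfitmF-/- arrays, and rose by 0.76 (0.55 to 0.98, adjusted p = 0.0203). Dkc1, the pseudouridine synthase gene, was at 8.58 and 8.68 in WT and 9.01 and 9.21 in IfitmF-/- cells (0.48, adjusted p = 0.0733). Nhp2 and Gar1 had changes of -0.02 (adjusted p = 0.915) and -0.19 (adjusted p = 0.295).

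Among the 15 assembly factors the 1 call was Nufip1, a platform for box C/D assembly, at 10.26 and 10.36 in WT and 9.36 and 9.39 in IfitmF-/- cells (-0.93, -1.16 to -0.71, adjusted p = 0.0162). Of 25 genes for trimming of snoRNAs and processing of ribosomal RNA, 1 was called higher and 1 lower (4.0% each, near the 4.96% and 3.61% of all genes). The exosome subunit Exosc8 rose (0.58, adjusted p = 0.0306) and Imp4, a protein of the U3 particle, fell (-0.57, adjusted p = 0.0307). None of 19 RNA polymerase I and nucleolar genes was called by limma. At an unadjusted p under 0.05 in limma 4 were higher and 2 lower, where 2854 and 2292 of all 19937 genes were. None of 7 genes for nonsense-mediated decay, which degrades many snoRNA host transcripts, was called by limma, with 0 higher and 2 lower at that unadjusted p. The methods' t-test called none of either list after adjustment. It also called none of the 9 snoRNA genes that limma called, so its lack of calls adds no support. Without adjustment its p was under 0.05 for 3 of the 19 and 2 of the 7 genes.

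**Figure D5:**
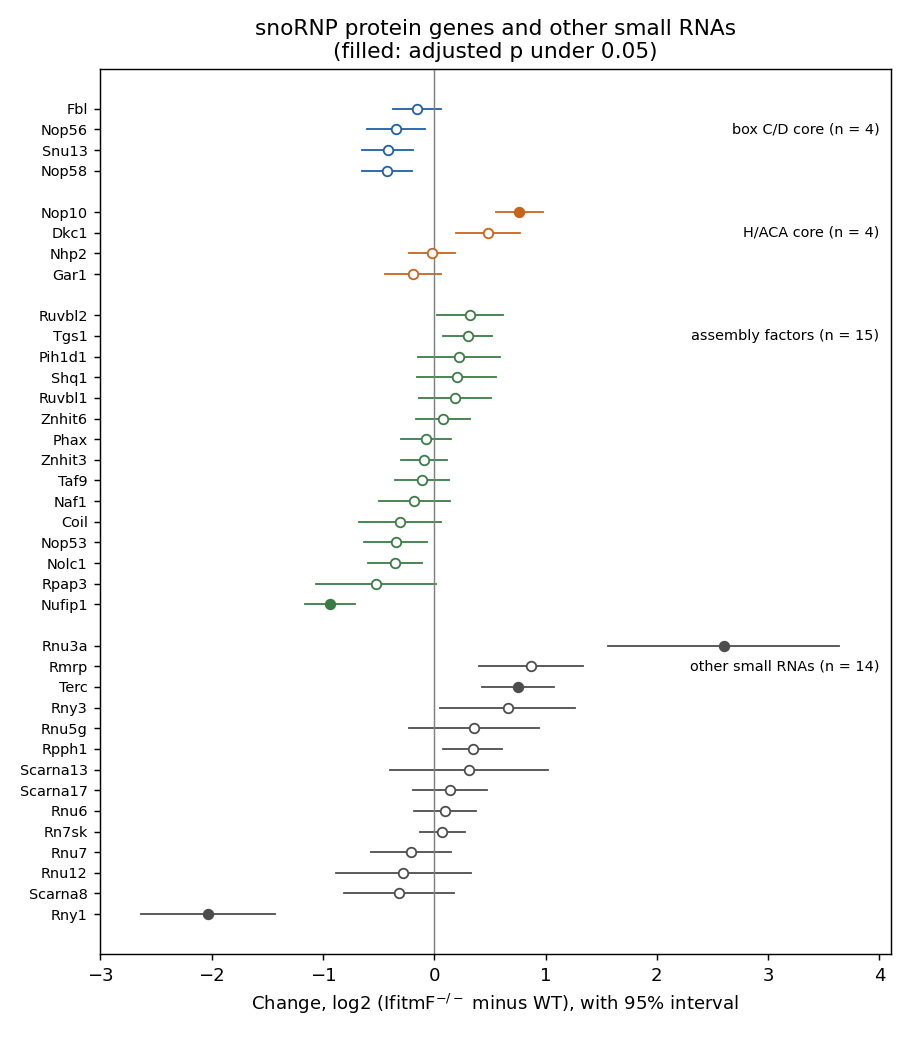
Change in log2 intensity (IfitmF-/- minus WT) with its 95% interval for the core genes of box C/D particles (blue, 4), the core genes of H/ACA particles (orange, 4), the assembly factors (green, 15) and other small RNAs (grey, 14). Filled points have an adjusted p under 0.05. The 4 box C/D core genes lie left of 0, Nop10 (0.76) lies right and Nufip1 (-0.93) left, and Rnu3a (2.60) and Rny1 (-2.03) stand at the 2 ends.

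Other small non-coding RNAs on the arrays showed larger changes than the snoRNA genes in a few cases. Rnu3a, the U3 RNA, is itself a box C/D RNA of ribosomal RNA processing but is not named Snord in the annotation. It was at 8.26 and 9.02 in WT and 10.83 and 11.66 in IfitmF-/- cells and rose by 2.60 (1.56 to 3.64, adjusted p = 0.0349). Terc, the telomerase RNA, which carries an H/ACA domain and binds the same core proteins, was at 11.07 and 11.35 in WT and 11.96 on both IfitmF-/- arrays (0.75, adjusted p = 0.0401). Rny1, a Y RNA, fell from 6.95 and 6.55 to 4.48 and 4.96 (-2.03, adjusted p = 0.0213). Both IfitmF-/- values of Rny1 lay under the background of 5.51, so the size of its fall is uncertain.

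The Cajal body RNAs Scarna13, Scarna17 and Scarna8, which guide modification of spliceosomal RNAs, had overlapping groups with changes of 0.31, 0.14 and -0.32 and adjusted p-values of 0.521, 0.525 and 0.352. Rmrp, which acts in cleavage of the ribosomal RNA precursor, was at 12.04 and 12.35 in WT and 12.88 and 13.24 in IfitmF-/- cells (0.87, adjusted p = 0.060). In all, 2 of the 14 were called higher (14.3%) and 1 lower (7.14%), and IfitmF-/- replicate 2 was the highest array for 10 of them. Of 291 microRNA genes 3 were called higher (1.03%) and 5 lower (1.72%), below the 4.96% and 3.61% of all genes. Their median change was -0.04, beside 0.28 over the 51 snoRNA genes. Only 106 of the 291 lay above the background of 5.51 (median level 4.94), against 49 of the 51 snoRNA genes. Most of the microRNA genes thus gave little signal, which limits this comparison.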

How the data were processed

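The 4 samples were measured as total RNA on Affymetrix arrays. The deposited values are intensities that the authors made with RMA, which corrects background, equalizes the distributions of the arrays and summarizes probes per probe set, so changes are relative to each whole array. The submitters' processing notes name RMA and affy, and their versions are not given in the sources used here. No depth applies to arrays, and their number, 2 per group, limits the precision.

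The log2 of each intensity was tested for all 34760 probe sets in R 4.3.3 using lmFit and eBayes of limma 3.58.1, without covariate or filter, with Benjamini-Hochberg adjustment over all probe sets. The procedure was tested on simulated data. A single gene was given by the platform annotation for 21640 probe sets, more than 1 gene for 1321 and no gene for 11799. Host genes were the smallest RefSeq gene (GRCm38.p6) that spans a snoRNA gene. The gene table has no strand, so the strand of the host was not checked. Lengths are those of RefSeq genes. Sequences of the mature snoRNAs are not used here.

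Genes named singly were all called snoRNA genes, the 4 of highest mean in each class, RNAs of precursor processing or of the Gas5, Snhg1 and Rpl13a hosts, their hosts, the core particle proteins, and called particle proteins and small RNAs. Others were named after their values were seen. The snoRNA genes and all gene lists were chosen with earlier results of these data known. The p-values measure the spread between 2 pools of cells per genotype.

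The alternatives tried were a replicate block, median centring, eBayes with trend and robust options, a filter on dim probe sets, a second quantile normalization, other choices of probe sets per gene, the t-test of the study's methods, its filter on fold and range, an adjusted p of 0.1, and each array left out in turn.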

Additional observations from a re-analysis of the deposited data

How the results depend on the processing

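The counts of called genes depended on having all 4 arrays and no block. Deviations of same-numbered arrays correlated at -0.12 over 34760 probe sets, so no pairing was taken from them, although replicate 2 was the higher array for most snoRNA genes in both genotypes (35 of 51 in WT and 38 of 51 in IfitmF-/- cells). With the replicate block, 0 box C/D and 0 H/ACA genes were called in either direction, and 0 particle protein, host and other small RNA genes (the 9 called snoRNA genes had adjusted p-values of 0.0624 to 0.103). With crossed pairing, chosen after seeing the data, the counts were 2 and 0 (box C/D higher and lower), 0 and 0 (H/ACA), 1 (particle proteins), 1 (hosts) and 2 (other small RNAs, microRNAs included, 11 otherwise). Leaving out any 1 array, whether WT replicate 1 or 2 or IfitmF-/- replicate 1 or 2, gave 0 to 0 for each of these 7 counts, with adjusted p-values of 0.0702 to 0.215 for the called snoRNA genes. The methods' t-test gave 0 for each after adjustment, and at an unadjusted p under 0.05 it gave 6 and 2 (box C/D), 2 and 2 (H/ACA), 7, 8 and 42. The study's methods filter on a change over 2-fold and on 250 linear units between the lowest and highest array. Applied here, that filter left 0 and 1 box C/D, 0 and 0 H/ACA, 0 particle protein, 1 host and 1 other small RNA gene. The study's own supplementary list, drawn from its differentially expressed genes, nonetheless names Snord47, Snord68 and Nop10. Their changes here were below 2-fold (0.91, 0.71 for Snord68 with Rpl13, and 0.76), so the filter as applied did not reproduce that list.

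At an adjusted p under 0.1 the counts were 10 and 2 (box C/D), 3 and 1 (H/ACA), 6, 5 and 24. Without dim probe sets 3 H/ACA genes were higher, and 5 particle protein and 5 host genes were called. Among probe sets of 1 gene, or with 1 probe set per gene, these counts were 3, 5 and 5, with 19 other small RNAs, and with the mean of a gene's probe sets 3, 4, 4 and 19. Under trend and robust eBayes 4 particle protein and 5 host genes were called. The median change of box C/D genes ranged from 0.22 to 0.38 when an array was left out, and that of H/ACA genes from 0.14 to 0.51. No change of a called snoRNA gene reversed its sign under any of these settings, and without dim probe sets Snord61 was not tested. Most of the settings could not have reversed a sign. The groups of each called gene did not overlap, so leaving out 1 array could not do so. Blocks, other tests and thresholds leave the change itself as it is.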
